A study of Mus musculus with 9 samples.

Results

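The contractile genes of smooth muscle were followed in mouse lung after lipopolysaccharide (LPS) and after LPS with a herbal decoction. The set holds 10 genes, taken as the rows of the gene count table with the symbols Acta2, Actg2, Myh11, Mylk, Cnn1, Tagln, Smtn, Lmod1, Des and Myocd, out of 21930 protein-coding genes. All 10 passed the filter on low counts, as did 15636 genes in all. The rule used symbols only and no measured value, although the genes were proposed with earlier results of these data known.

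Whole-lung RNA of male C57BL/6 mice, described as 6 to 8 weeks old, was sequenced in 3 groups of 3 libraries, and the series text calls the libraries of a group biological replicates. The LPS group received LPS, a lipid-linked sugar of the bacterial outer membrane that provokes acute lung injury, into the trachea at 2 mg/kg, and was then gavaged daily with vehicle from 24 h on. The LPS + RSBD group received the same LPS and was gavaged with Renshen Baidu Powder (RSBD), a Chinese herbal formula boiled to a decoction. The control group received sterile saline into the trachea in place of LPS, and its gavage is likewise listed as starting at 24 h. Lungs of all groups were collected on day 5. The labels give 5 days of gavage, which is one more than the time from the first dose to collection allows unless the last dose fell on the day of collection. No transgene or deletion is named, and all groups share the strain and the intratracheal procedure.

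Smooth muscle in the lung rings the conducting airways and sheaths the blood vessels. Force comes from smooth muscle myosin pulling on actin once myosin light chain kinase, switched on by calcium and calmodulin, phosphorylates the light chain. In the differentiated cell this machinery is transcribed under serum response factor (SRF), which binds an A/T-rich element called the CArG box, together with its coactivator myocardin. The markers are not wholly specific: Acta2 is also made by myofibroblasts and pericytes, Des by heart and skeletal muscle, and Mylk has a long form in endothelium and other non-muscle cells. The deposited gene counts sum over isoforms, so the smooth muscle and non-muscle forms of Mylk were not separated here.

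Total counts were 26959662 to 36113905 per library, and the 10 genes held 0.0611% to 0.116% of them. Every gene was read in every library, from 56 to 135 reads for Myocd up to 6894 to 13410 for Mylk. Marker genes of alveolar type 2 cells summed to 11893 to 18290 CPM (counts per 1000000 counts, after TMM scaling of the libraries), as lung tissue would give. Genes of the Y chromosome had 6, 7 and 9 reads in control libraries 1 to 3, against 7511 to 10918 in the remaining 6, although the labels call every animal male. That difference runs along the line between control and LPS, so the 2 comparisons with control cannot be told apart from it, and no control library was free of it. Both groups of the comparison of LPS + RSBD with LPS have these reads. In bulk tissue, fewer smooth muscle cells and less of these RNAs per cell cannot be told apart either.

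Compared per length of transcript, as deposited TPM (transcripts per 1000000 transcripts), alpha actin Acta2 was the most abundant of the 10 at 132 ± 36.9 TPM (SD, n = 9 libraries). Tagln followed at 105 ± 28.7 TPM and Mylk at 81.3 ± 13.1 TPM. The spreads of Acta2 and Tagln overlap, as do those of Tagln and Mylk, yet Acta2 lay above Tagln in 9 of 9 libraries and Tagln above Mylk in 7 of 9. Des at 45.7 ± 13.8 TPM and Myh11 at 37.3 ± 10.4 TPM formed the middle of the order, with Des above Myh11 in 9 libraries and Myh11 above Smtn (28.6 ± 5.26 TPM) in 8. Cnn1 had 20.7 ± 8.46 TPM and Actg2 18.4 ± 7.24 TPM, and these neighbours did not differ beyond their spread, Cnn1 being the higher in 8 libraries. Lmod1 at 5.76 ± 1.61 TPM and Myocd at 1.41 ± 0.58 TPM were the lowest in each library.

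All 10 gene models have the coordinates of GENCODE M21 on GRCm38. Acta2 lies at chr19:34241090-34255590, Actg2 at chr6:83512905-83536265, Myh11 at chr16:14194535-14291372 and Mylk at chr16:34745210-35002420. Cnn1 is at chr9:22099216-22109630, Tagln at chr9:45929619-45936058 and Smtn at chr11:3517523-3540612. Lmod1 is at chr1:135324807-135368065, Des at chr1:75360329-75368579 and Myocd at chr11:65176561-65269989. Tagln is the one member that overlaps a protein-coding gene, Pcsk7 on the opposite strand, and 22.6% of its 150-base transcript windows also occur in the antisense transcript Gm48529. The kit marks strand, but the strand setting of the counting is not given in the sources used here, so part of the Tagln count could belong to these neighbours. For Acta2, Actg2, Myh11, Cnn1, Lmod1 and Myocd no 150-base window was shared with another gene.

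The levels of the 10 genes in single libraries, in control, LPS and LPS + RSBD, are plotted gene by gene.

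**Figure D1:**
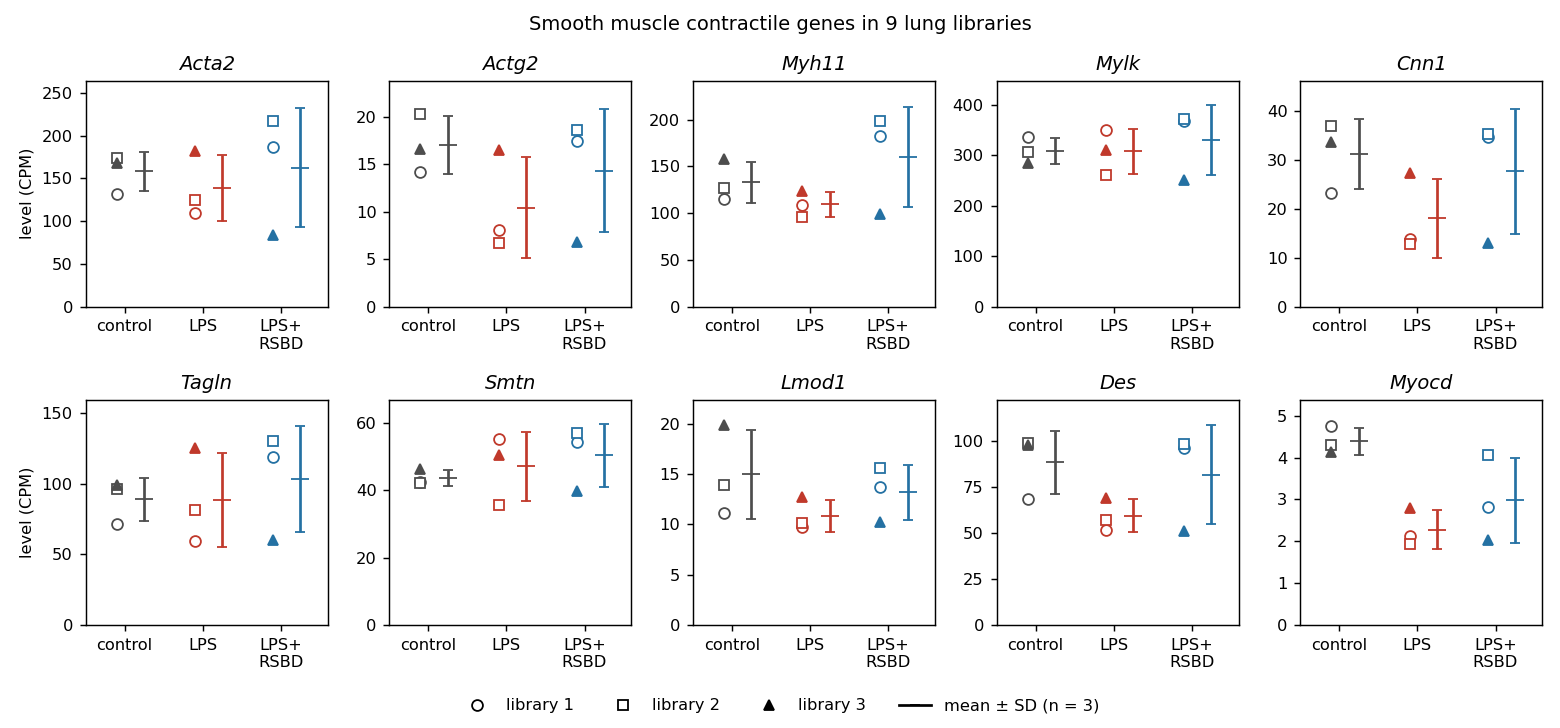
Levels of the 10 genes in CPM (vertical axis, from 0) in control, LPS and LPS + RSBD lungs, with 1 symbol per library and the mean ± SD of 3 libraries beside each group. LPS + RSBD library 3 (filled triangle) is the lowest of its group in all 10 panels, and only the Myocd panel has all LPS libraries below all control libraries.

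After LPS, 1 of the 10 genes passed the test against control, the coactivator Myocd, which fell to 0.519 times its control level. The other 9 did not pass, with log2 fold changes from -0.80 for Cnn1 to 0.11 for Smtn. Of the 15636 genes tested in this comparison, 17.4% were called in either direction and 8.63% as lower, so 1 member in 10 is a share near that of all genes. The median log2 fold change of the members was -0.37 and that of all genes tested -0.01. In 9 of 10 members the sign was negative, but for Mylk and Tagln the value was so near 0 (-0.00 and -0.01) that other scalings turn it. The test was edgeR's quasi-likelihood test on the deposited counts, adjusted over the 15636 genes by the Benjamini-Hochberg method, and a gene was called at an adjusted p under 0.05.

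Myocardin, the product of Myocd, binds SRF and turns on the contractile genes. Control libraries 1 to 3 had 4.75, 4.30 and 4.13 CPM, LPS libraries 2.12, 1.93 and 2.80 CPM, and LPS + RSBD libraries 2.82, 4.07 and 2.04 CPM. Every LPS library was below every control library, with a gap from 2.80 to 4.13 CPM. Groups failed to overlap in 38.0% of all genes in this comparison (19.5% with LPS lower and 18.6% with LPS higher), and Myocd was the single member for which they did. The log2 fold change was -0.94 ± 0.29 (SE), with a 95% interval of -1.58 to -0.31 and an edgeR adjusted p of 0.0474. That call stood close to the threshold: without control 1, control 2 or control 3, without LPS 1, LPS 2 or LPS 3, or without LPS + RSBD 1, it was lost, with adjusted p up to 0.154 and a log2 fold change between -1.10 and -0.84 over all libraries left out. It was also lost with upper-quartile scaling, without the filter, with the replicate number as a block and in 3 limma fits on TPM. It was kept with RLE scaling, with the 2 groups fitted alone and with DESeq2, and the adjusted p ran from 0.0150 to 0.0926 over these settings. On the TPM scale the groups also stood apart, at 1.72 to 2.52 in control and 0.84 to 1.24 in LPS, but LPS 2 was the highest LPS library there and the lowest by CPM.

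Smooth muscle has 2 actin isoforms of its own, alpha (Acta2), typical of vessels, and gamma (Actg2), typical of visceral muscle. Acta2 had 132, 174 and 168 CPM in control, 109, 125 and 182 CPM in LPS and 186, 218 and 83.9 CPM in LPS + RSBD. LPS 3 lay above all controls and LPS + RSBD 3 below all other libraries, so every pair of groups overlapped. The fitted difference between LPS and control was -0.19 ± 0.32 on the log2 scale (edgeR adjusted p = 0.713). Actg2 had 14.2, 20.2 and 16.6 CPM in control, 8.10, 6.66 and 16.5 CPM in LPS and 17.5, 18.7 and 6.83 CPM in LPS + RSBD. LPS 1, LPS 2 and LPS + RSBD 3 were at less than 9 CPM and the other 6 libraries at 14 CPM or more, a split that crosses the groups. Its difference of -0.71 ± 0.42 did not pass the test (edgeR adjusted p = 0.262).

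Because the actin genes are textbook targets of SRF, the RefSeq promoter windows (GRCm38.p6, 250 bases before the start) were searched on both strands for the CArG box. Windows were found for 6 of the 10 members, namely Acta2, Mylk, Cnn1, Smtn, Lmod1 and Des. None of the 6 held an exact match, and Acta2 alone held matches with 1 G or C in the 6-base A/T core, against 1.47% of 32851 mouse promoter windows with an exact match and 8.59% with at most 1 such base. The 2 Acta2 elements are shown with those of Myl9, the regulatory light chain gene of smooth muscle, whose first element is an exact match. Capitals mark the element.
Acta2 element 84 to 75 bases before the start, chr19:34255438-34255467, minus strand: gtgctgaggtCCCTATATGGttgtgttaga
Acta2 element 34 to 25 bases before the start, chr19:34255388-34255417, minus strand: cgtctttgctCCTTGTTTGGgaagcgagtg
Myl9 element 161 to 152 bases before the start, chr2:156775293-156775322, plus strand: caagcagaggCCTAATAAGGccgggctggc
Myl9 element 99 to 90 bases before the start, chr2:156775355-156775384, plus strand: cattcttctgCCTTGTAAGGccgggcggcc
Both Acta2 stretches fall in an exon and untranslated region of a longer GENCODE M21 transcript, since that transcript starts further upstream than the RefSeq start. A match describes the letters in the window and does not show that SRF binds there. The other 5 promoter windows say nothing on elements farther away or in introns.

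Myh11 encodes the smooth muscle myosin heavy chain, the motor of the thick filament and the most specific marker of the lineage. It had 115, 126 and 158 CPM in control, 109, 96.3 and 123 CPM in LPS and 183, 198 and 98.6 CPM in LPS + RSBD. The LPS libraries sat low but reached into the control range, and the difference was -0.28 ± 0.24 (edgeR adjusted p = 0.438). Mylk, the kinase that starts contraction, had 337, 306 and 284 CPM in control, 350.2, 262 and 312 CPM in LPS and 368, 373 and 251 CPM in LPS + RSBD. Those ranges lay on top of one another, and the difference of -0.00 ± 0.16 had a 95% interval of -0.36 to 0.35.

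Cnn1, Tagln, Smtn and Lmod1 encode proteins that bind or build the actin filament. Cnn1, the basic calponin that restrains the actomyosin ATPase, had 23.3, 37.1 and 33.6 CPM in control, 13.9, 12.8 and 27.4 CPM in LPS and 34.7, 35.4 and 13.0 CPM in LPS + RSBD. LPS 1, LPS 2 and LPS + RSBD 3 were again the 3 lowest libraries, as for Actg2, while LPS 3 lay inside the control range. The difference between LPS and control was -0.80 ± 0.41 (edgeR adjusted p = 0.201), more negative than that of every member but Myocd. Tagln, the early smooth muscle marker SM22, had 71.4, 96.3 and 99.3 CPM in control, 59.5, 81.2 and 125 CPM in LPS and 119, 130.4 and 60.2 CPM in LPS + RSBD. The LPS libraries straddled the control range on both sides, and the difference was -0.01 ± 0.32.

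Smtn encodes smoothelin, a cytoskeletal protein of contractile cells, and was the steadiest member in control, at 42.5, 42.3 and 46.5 CPM. LPS libraries had 55.2, 35.5 and 50.6 CPM of Smtn and LPS + RSBD libraries 54.3, 57.0 and 39.7 CPM. The coefficient of variation was 5.41% in control, 21.9% in LPS and 18.5% in LPS + RSBD, and the difference between LPS and control was 0.11 ± 0.17. Lmod1 encodes leiomodin 1, which starts new actin filaments. It had 11.1, 13.9 and 19.8 CPM in control, 9.73, 10.1 and 12.7 CPM in LPS and 13.7, 15.6 and 10.2 CPM in LPS + RSBD. Control 1 fell inside the LPS range, and the difference of -0.46 ± 0.23 did not pass (edgeR adjusted p = 0.183).

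Des encodes desmin, the intermediate filament that ties the contractile lattice together. It had 68.6, 98.5 and 97.4 CPM in control, 51.5, 57.0 and 69.0 CPM in LPS and 95.8, 98.1 and 50.8 CPM in LPS + RSBD. Control 1 and LPS 3 met at nearly the same level, so the groups overlapped by less than 1 CPM. The difference of -0.57 ± 0.25 had an unadjusted p of 0.0453 and an edgeR adjusted p of 0.135. Des and Myocd were the 2 members with an unadjusted p under 0.05, against 34.5% of all genes tested. Without LPS + RSBD 3, which belongs to neither group compared but enters the filter, the scaling and the estimate of spread, Des passed as well, at an edgeR adjusted p of 0.0339.

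The fitted differences and their intervals are drawn for the 3 comparisons.

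**Figure D2:**
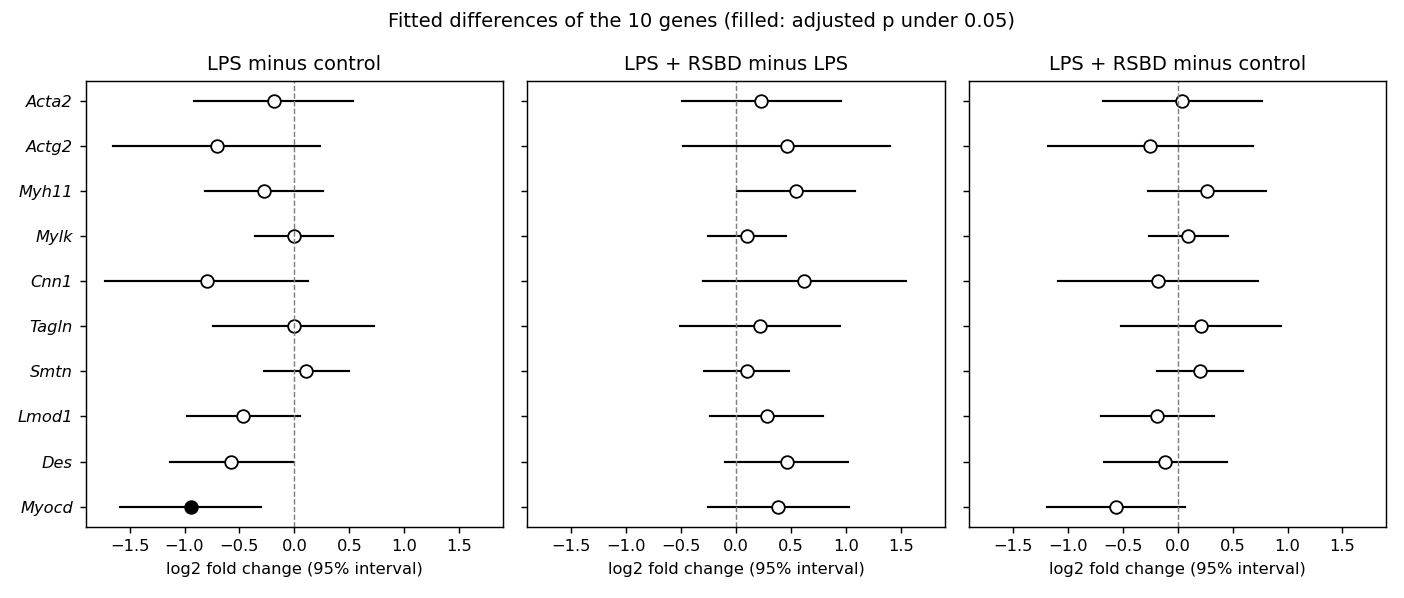
Log2 fold changes of the 10 genes with 95% intervals for LPS minus control, LPS + RSBD minus LPS, and LPS + RSBD minus control, from the edgeR fit to all 9 libraries. Myocd in LPS minus control is the one filled point (adjusted p under 0.05), and in LPS + RSBD minus LPS all 10 points lie right of 0.

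Between LPS + RSBD and LPS, none of the 10 genes passed the test, and none of the 15636 did (0% called). With edgeR, 1 member (Myh11) and 9.42% of all genes had an unadjusted p under 0.05. DESeq2 called 0 members and 165 of all genes, with 1 member and 1653 of all genes at an unadjusted p under 0.05. Limma on log2(TPM + 1) called 0 members and 1 of all genes. The fitted differences were positive for all 10 members, with a median of 0.33 against 0.01 for all genes. The 10 genes vary together from library to library, so their shared sign is not 10 separate observations. No member had groups that did not overlap, against 12.6% of all genes (5.46% with LPS + RSBD lower and 7.18% with it higher), because LPS + RSBD 3 lay inside or below the LPS range for each of them.

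Cnn1 had the largest difference, 0.62 ± 0.41, with a 95% interval of -0.30 to 1.54. Myh11 followed at 0.55 ± 0.24, with an interval of 0.01 to 1.08 and an edgeR adjusted p of 0.526. Des at 0.46 ± 0.25, Actg2 at 0.46 ± 0.42 and Myocd at 0.39 ± 0.29 had intervals that span 0. Apart from that of Myh11, these intervals hold 0 together with values up to 1.54 on the log2 scale. No difference and a rise could thus not be told apart with 3 libraries a group. The other 5 members lay between 0.10 (Smtn and Mylk) and 0.28 (Lmod1). The comparison of LPS with control uses the same LPS libraries, so the opposite signs of both comparisons are not independent of each other.

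Between LPS + RSBD and control, 0 of 10 members passed the edgeR test, where 3.70% of all genes did (1.80% as lower), and 0 had an unadjusted p under 0.05, where 22.7% did. DESeq2 and limma on log2 TPM called 0 members too. Fitted differences were positive for 5 members and negative for 5, with a median of -0.04. Myocd was the lowest at -0.56 ± 0.28 (edgeR adjusted p = 0.271), and its LPS + RSBD libraries, up to 4.07 CPM, all lay just below the lowest control at 4.13 CPM. Groups did not overlap for 30.4% of all genes in this comparison (15.0% with LPS + RSBD lower and 15.4% with it higher) and for Myocd alone among the members. Myh11 was the highest at 0.27 ± 0.24, with 2 LPS + RSBD libraries above all controls and the other one below them.

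Libraries of the same group differed in one direction across most of the set. LPS + RSBD 3 was the lowest library of its group for 10 of 10 genes and LPS + RSBD 2 the highest for 10 of 10. In the LPS group, library 3 was the highest for 8 genes. The mean of the 10 genes, each as log2 CPM minus its mean over the 9 libraries, was -0.02, 0.25 and 0.28 in control, -0.37, -0.46 and 0.12 in LPS and 0.31, 0.45 and -0.55 in LPS + RSBD. The lowest and the highest of the 9 values thus both fell in the LPS + RSBD group. Without LPS + RSBD 3, the members' median difference from LPS was 0.56 in place of 0.33, with 0 members called and 5 of 10 at an unadjusted p under 0.05. Over all genes in that fit the median was 0.01, and 1698 of 15803 had such a p. The median difference from control was then 0.21 in place of -0.04. Without LPS + RSBD 2, the median difference from LPS was 0.12, with 8 of 10 positive, and without LPS 3 it was 0.53, with 10 positive. By edgeR, 0 of 10 members had an unadjusted p under 0.05 without LPS + RSBD 2, 0 without LPS + RSBD 1 and 2 without LPS 3. LPS + RSBD 3 is singled out for its low levels of these same genes, so a larger difference and smaller p-values without it are built in.

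**Figure D3:**
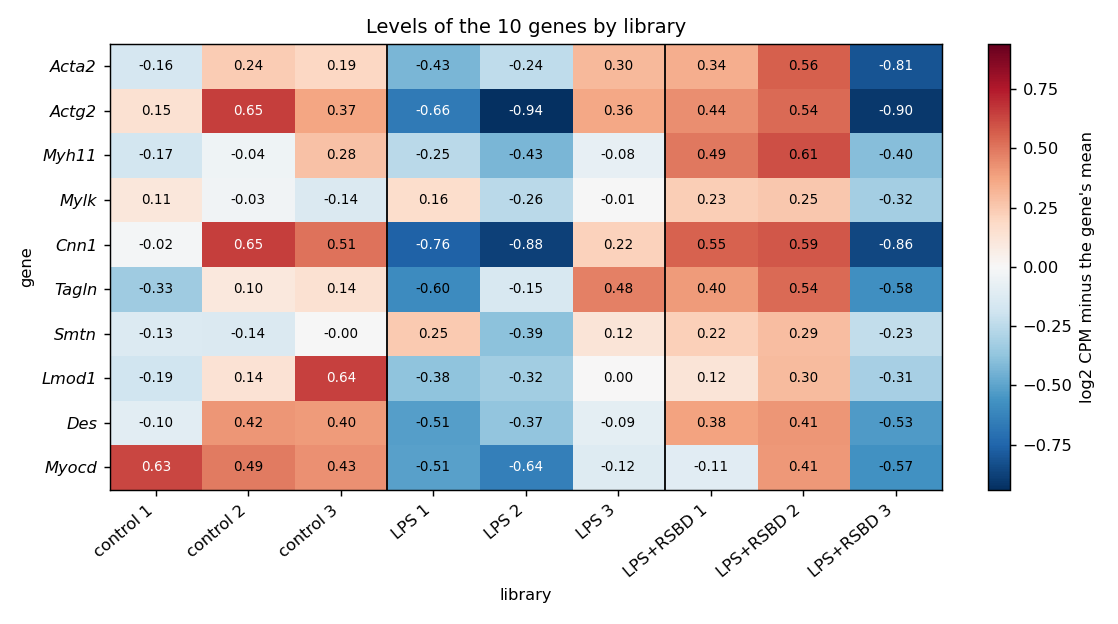
Log2 CPM of each gene minus its own mean over the 9 libraries, with genes in rows, libraries in columns and the value printed in each cell. LPS + RSBD 3 is below 0 in every row and LPS + RSBD 2 above 0 in every row, while Mylk and Smtn stay within the narrowest range.

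Over the 9 libraries, the 45 pairs of members had Pearson correlations of log2 CPM from 0.19 to 0.99, with a median of 0.76. The median was 0.77 when each library was taken as its deviation from its group mean, so members were as closely related inside groups as over all libraries. All genes of a library share its depth and its piece of tissue, and these correlations are given as descriptions only. Actg2 and Cnn1 were the closest pair (0.99), and Smtn with Myocd the most distant (0.19). Against the mean of the other 9 members, Cnn1 reached 0.97, Actg2 0.95, Des 0.94 and Acta2 0.92, while Mylk reached 0.56 and Smtn 0.52. The biological coefficient of variation fitted by edgeR had the same genes at both ends, with 0.356 for Actg2 and 0.347 for Cnn1 against 0.150 for Mylk and 0.161 for Smtn, where the median of all genes was 0.145.

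Genes outside the set were ranked by the same correlation with the mean of the 10, over the 9 libraries. The 8 nearest were Samd11 (0.99), Cygb (0.98), Osbpl5 (0.96), Shisa3 (0.96), Speg (0.95), Tpm2 (0.94), Bdkrb1 (0.94) and Clec16a (0.94). Tpm2 encodes beta tropomyosin, Speg a kinase of striated and smooth muscle, Cygb cytoglobin and Bdkrb1 the bradykinin B1 receptor. Samd11 and Bdkrb1 were at 0.83 and 1.46 CPM on average, near the filter, as was Veph1 of the next ranking at 0.94 CPM. By deviations from group means the 8 nearest were Cygb (0.99), Samd11 (0.99), Igsf10 (0.97), 1500009L16Rik (0.97), Speg (0.96), Tgfb3 (0.96), Veph1 (0.96) and Cxcl14 (0.96). They were picked from 15626 genes, so a high value for the top of the ranking is built in. Among lists of other cell types, genes of matrix fibroblasts and myofibroblasts had the highest median correlation of deviations with the members, 0.70 over 12 genes, against 0.01 over all other genes tested. By the correlation over the 9 libraries, cardiac muscle genes had the highest list median (0.55), with fibroblast genes at 0.44 and all other genes at 0.04.

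Other parts of the contractile apparatus were read from a list of 22 further genes. After LPS, 2 rose and 4 fell, 1 fell in LPS + RSBD against control, and 0 passed in LPS + RSBD against LPS (3 at an unadjusted p under 0.05, 0 by DESeq2). Counts for this list and the lists below stand beside 17.4% of all genes called after LPS (8.63% as lower). In LPS + RSBD against control that share was 3.70%. Myl6, the essential light chain that smooth and non-muscle myosin share, went from 380.1 to 422 CPM in control to 457 to 554 CPM in LPS (log2 fold change 0.39 ± 0.10, edgeR adjusted p = 0.0265). Myl9, chosen here for its promoter elements, rose from 50.7 to 52.3 CPM to 66.6 to 73.1 CPM (0.46 ± 0.14, edgeR adjusted p = 0.0469). Flnc, filamin C of muscle, fell from 6.30 to 18.4 CPM to 3.01 to 4.62 CPM (-1.85 ± 0.48, edgeR adjusted p = 0.0330). Synm, the intermediate filament protein synemin that joins with desmin, fell from 87.1 to 93.1 CPM to 56.0 to 69.1 CPM (-0.55 ± 0.11, edgeR adjusted p = 0.0127). Pdlim7, a LIM protein of actin bundles, fell after LPS (-0.39 ± 0.12, edgeR adjusted p = 0.0492). In LPS + RSBD against control Pdlim7 fell by 0.73 ± 0.12 on the log2 scale (edgeR adjusted p = 0.0153). Tpm2, which tracked the members most closely of this list, had 36.6 to 44.2 CPM in control and 24.1 to 32.6 CPM in LPS and did not pass (-0.51 ± 0.24, edgeR adjusted p = 0.164).

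The regulators of the programme were read from 18 genes, of which 1 rose and 1 fell after LPS. Smad3, a transducer of TGF-beta signals, fell from 85.5 to 102 CPM in control to 46.7 to 51.2 CPM in LPS, by 0.93 ± 0.08 on the log2 scale (edgeR adjusted p = 0.000825), and in LPS + RSBD it fell by 0.72 ± 0.08 against control. Tgfb1, the ligand, rose from 54.3 to 54.7 CPM to 70.3 to 78.5 CPM (0.46 ± 0.10, edgeR adjusted p = 0.0136). Srf itself, looked up as the partner of Myocd, had 33.6 to 41.6 CPM in control and 30.6 to 38.5 CPM in LPS (-0.10 ± 0.13, edgeR adjusted p = 0.636). The related coactivators Mrtfa and Mrtfb, looked up for the same reason, had log2 fold changes of 0.38 ± 0.12 and -0.32 ± 0.11 (edgeR adjusted p = 0.0511 and 0.0733).

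SRF also drives immediate early genes, and 10 of these were read as a list apart from the contractile genes. After LPS 4 of 10 fell and 0 rose. Egr1 fell from 56.3 to 94.8 CPM in control to 9.06 to 15.8 CPM in LPS (-2.42 ± 0.27, edgeR adjusted p = 0.00282), and in LPS + RSBD it had 50.2 to 71.0 CPM. Fosb fell by 3.26 ± 0.43 and Ccn1 by 1.48 ± 0.28 on the log2 scale. Against control, 2 genes of the list passed in LPS + RSBD: Fosb fell by 1.99 ± 0.40 (edgeR adjusted p = 0.0338) and Ier2 rose by 0.58 ± 0.09 (edgeR adjusted p = 0.0147). In LPS + RSBD against LPS the difference was positive for 10 of 10, with a median of 0.72. None passed the edgeR test (7 at an unadjusted p under 0.05), while DESeq2 called 4. Unlike the contractile genes, the list mean of LPS + RSBD 3 (0.22) lay inside the range of its group (0.16 to 0.48).

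Receptors, channels and second messengers of smooth muscle made a list of 24, of which 1 rose and 5 fell after LPS. Cacna1h, a T-type calcium channel, fell from 24.4 to 30.9 CPM to 8.84 to 13.0 CPM (-1.28 ± 0.15, edgeR adjusted p = 0.00282). The inositol trisphosphate receptor Itpr1, which releases calcium from stores, fell by 0.33 ± 0.08 on the log2 scale (edgeR adjusted p = 0.0286). None of the 24 passed in LPS + RSBD against LPS by edgeR (4 at an unadjusted p under 0.05, 1 by DESeq2).

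Most contractile genes have close relatives in non-muscle cells or in striated muscle. Of 14 relatives of either kind tested, 4 rose after LPS while 0 fell. Vim, the intermediate filament of mesenchymal and immune cells, rose from 386 to 409.6 CPM to 866 to 964 CPM (1.19 ± 0.12, edgeR adjusted p = 0.00197). Cnn2, the non-muscle calponin, rose by 0.60 ± 0.09 and Actg1, a cytoplasmic actin, by 0.71 ± 0.11. In LPS + RSBD against control 2 relatives passed, Vim (1.01 ± 0.12, edgeR adjusted p = 0.00849) and Actg1 (0.54 ± 0.11, edgeR adjusted p = 0.0275). To set each contractile gene against its relative per length, TPM ratios within a library were taken for 5 pairs chosen after their values were seen, and no test was made. Acta2 was 6.03% to 7.88% of Actb in control, 3.32% to 5.45% in LPS and 2.83% to 6.81% in LPS + RSBD. Cnn1 was 12.5% to 21.8% of Cnn2 in control, 4.51% to 11.0% in LPS and 7.08% to 16.5% in LPS + RSBD. Des was 12.9% to 18.8% of Vim in control, 4.24% to 5.79% in LPS and 5.53% to 9.16% in LPS + RSBD. Myh11 was 18.0% to 23.8% of Myh9 in control, 11.5% to 17.9% in LPS and 14.1% to 26.5% in LPS + RSBD. For these 4 pairs the LPS libraries lay below all controls, by a narrow margin for Myh11 to Myh9, and for Des to Vim the LPS + RSBD libraries did too. Taken singly, 38.0% of all genes had LPS and control groups that did not overlap (19.5% with LPS lower). No such share was taken over other ratios, so the count of pairs has nothing to be set against. Tagln to Tagln2 overlapped between all groups. A ratio combines the changes of both genes: Actb, Cnn2 and Vim were called as higher after LPS, while Myh9 (0.27 ± 0.12, edgeR adjusted p = 0.149) and the contractile gene of each pair were not called.

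**Figure D4:**
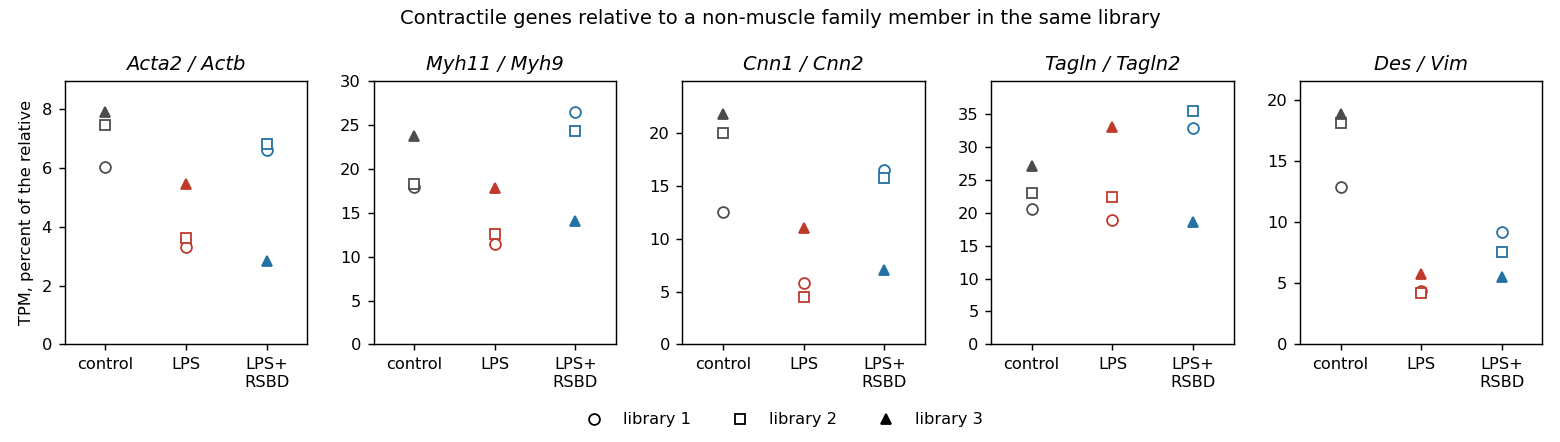
TPM of a contractile gene as a percent of the TPM of its non-muscle relative in the same library (vertical axes, from 0), with 1 symbol per library in control, LPS and LPS + RSBD. For Acta2 to Actb, Myh11 to Myh9, Cnn1 to Cnn2 and Des to Vim all LPS symbols lie below all control symbols, while for Tagln to Tagln2 the groups overlap.

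Markers of neighbouring cell types were read beside the members. Of 12 pericyte genes, 1 fell after LPS, Rgs5, by 1.89 ± 0.33 on the log2 scale (edgeR adjusted p = 0.00898). Rgs5 was also the one called in LPS + RSBD against control (-1.61 ± 0.32, edgeR adjusted p = 0.0344). The summed level of the 12 genes was 544 to 577 CPM in control, 537 to 574 CPM in LPS and 451 to 619 CPM in LPS + RSBD. Of 12 matrix fibroblast and myofibroblast genes, Postn and Tcf21 rose and Lox fell after LPS. In LPS + RSBD against control Postn rose (1.09 ± 0.19, edgeR adjusted p = 0.0229) and Lox fell (-1.41 ± 0.23, edgeR adjusted p = 0.0165). The sum of this list was 1291 to 1557 CPM in control, 1500 to 1699 CPM in LPS and 1073 to 2072 CPM in LPS + RSBD. In LPS + RSBD 3 the lowest of those sums was found for both lists, and the mean of the fibroblast list there was -0.64 against 0.34 and 0.48 in LPS + RSBD 1 and 2. The list means of pericytes (-0.28) and of the other contractile apparatus (-0.25) were also at their lowest in LPS + RSBD 3. The low contractile genes of LPS + RSBD 3 thus came with low genes of these 3 lists, and their part in the result was not tested. No gene of either list was at 0 in all libraries.

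Cardiac muscle genes, which the mouse lung carries in the sleeves of its pulmonary veins, moved between libraries too. Their sum over 12 genes was 136 to 541 CPM in control, 109 to 171 CPM in LPS and 193 to 744 CPM in LPS + RSBD, and 2 fell after LPS (Ttn and Myom2). After LPS the edgeR difference was negative for 12 of 12 (median -1.41), with 6 at an unadjusted p under 0.05. In LPS + RSBD against LPS it was positive for 12 of 12 (median 1.61), with 0 called and 8 at such a p. Over all genes, 34.5% and 9.42% had such a p in these 2 comparisons. Of 10 skeletal muscle genes 5 were tested and 0 passed by edgeR or DESeq2 in any comparison. At an unadjusted edgeR p under 0.05 were 2 in LPS against control, 2 in LPS + RSBD against LPS and 1 in LPS + RSBD against control. The 10 genes summed to 5.14 to 15.5 CPM. The smallest p of that list belonged to Ckm in LPS + RSBD against control (1.91 ± 0.74, edgeR adjusted p = 0.167) and Tnni2 in LPS against control (1.08 ± 0.45, edgeR adjusted p = 0.122). Among 12 airway club and ciliated cell genes 7 fell after LPS, including Bpifb1, Muc5b and Scgb3a1, and the list mean was -1.09 to -0.72 in LPS against 0.06 to 0.66 in control. In LPS + RSBD the list mean was -0.08 to 0.65, and the difference from LPS was positive for 12 of 12 (median 0.68). None of these passed the edgeR test there (8 at an unadjusted p under 0.05), and up to 5 passed under the alternatives. Chad fell among 6 airway cartilage genes tested, Msln fell among 8 mesothelial genes, and Cdh5 and Pecam1 rose among 10 endothelial genes. The Msln call stood close to the threshold (-1.87 ± 0.56, edgeR adjusted p = 0.0483). The mesothelial list mean was 1.04, -1.32 and -1.42 in LPS 1 to 3, against 0.62 to 0.89 in control. Of 8 alveolar type 2 genes none passed the edgeR test after LPS (2 at an unadjusted p under 0.05, 2 by DESeq2), with Etv5 at -0.36 ± 0.12 and Sftpa1 at -0.41 ± 0.16. The part of these lists in the differences of the contractile genes was not tested.

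**Figure D5:**
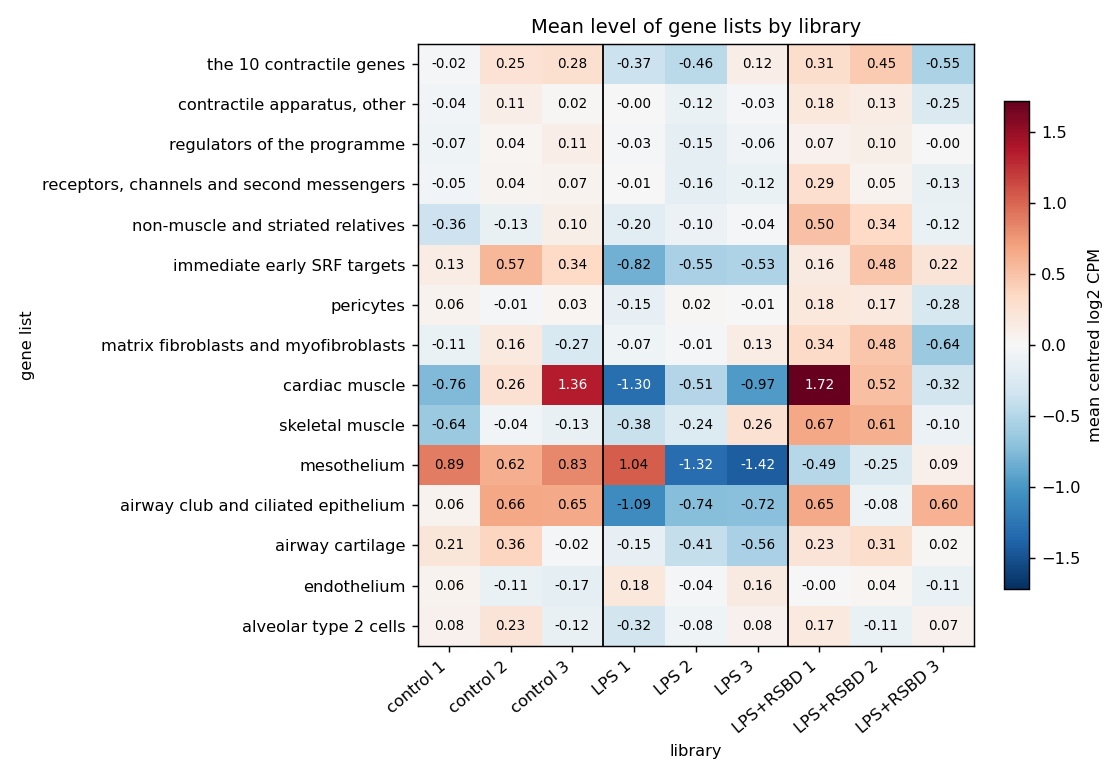
Mean over each gene list of log2 CPM minus the gene's mean over the 9 libraries, with lists in rows, libraries in columns and the value printed in each cell. The contractile genes and the fibroblast list share their lowest value in LPS + RSBD 3 (-0.55 and -0.64). The pericyte list (-0.28) and the other contractile apparatus (-0.25) are lowest there too, whereas the airway and immediate early lists are lowest in the LPS libraries.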

How the data were processed

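Lung RNA of 9 libraries was sequenced from strand-specific libraries of enriched mRNA, per the labels' protocols. The submitters' processing notes name GRCm38 (mm10) and the tools DESeq2 1.38.3, StringTie 2.2.0, HISAT2 2.2.1 and fastp 0.23.2 without their roles or order. No source used here names the counter or its strand setting. The authors deposited estimated counts (expected counts, whole numbers throughout) and TPM for 21930 protein-coding genes. TPM columns sum to 795528 to 859032, and TPM served for levels per length, ratios and alternatives. Columns named RS were matched to the LPS + RSBD samples by replicate number.

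Tests on counts used edgeR 4.0.16 under R 4.3.3 (filterByExpr with minimum count 10 and minimum total 15, TMM, robust quasi-likelihood fit of all 9 libraries, 2-sided F tests, Benjamini-Hochberg adjustment over 15636 genes, threshold 0.05). SE was the log2 fold change divided by the square root of F. Over all genes its median was 0.15. Log2 CPM used a prior count of 2. Alternatives were RLE and upper-quartile scaling, no filter, a replicate block, fits of 2 groups, each library left out, DESeq2 1.42.0 and limma 3.58.1 on log2(TPM + 1) or log2(TPM + 0.1). The tests were tried on simulated data first. No batch is given. No source names separate cages or days, so p-values measure the spread between these libraries.

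The members, the 14 other lists (183 genes) and the alternatives were chosen with earlier results of these data known. Named were all members, up to 3 called genes per list and comparison with the smallest p, and the 8 genes nearest to the members by each correlation. Srf, Mrtfa, Mrtfb, Myl9, Actb, Myh9 and Tagln2 were named after their values were seen. 1 gene that the rule names is not reported here.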

Additional observations from a re-analysis of the deposited data

How the results depend on the processing

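Of 270 member fold changes under alternatives other than leaving out a library, 250 kept their direction and side of the threshold, 6 lost a call, 1 gained one and 13 changed sign. With a library left out these numbers were 242, 7, 1 and 20 of 270. The count of members called in LPS against control was 0 with upper-quartile scaling, without the filter, with the replicate block and in all 3 limma fits, and 2 when the 2 groups were fitted alone (Myocd and Des). It was 0 to 2 with a library left out. Over those other alternatives Myocd had an adjusted p of 0.0150 to 0.0926, and with libraries left out 0.0341 to 0.154. The cause was not tested.

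All genes called in LPS against control numbered 1532 by limma without a filter, and the share called higher moved from 50.5% to 34.7% with limma on log2(TPM + 1), 35.2% on log2(TPM + 0.1) and 33.5% without the filter. They were 786 to 2870 with a library left out, with 786 without LPS 2, 892 without control 2, 999 without control 3 and 1631 without LPS 3. In LPS + RSBD against LPS they were 1 with 2 groups fitted, 1 in each filtered limma fit, 165 by DESeq2 and 0 to 4 with a library left out. In LPS + RSBD against control they were 240 with the replicate block, 308, 307 and 137 by limma, 1744 by DESeq2 and 94 to 961 with a library left out.

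With a library left out, genes called after LPS ranged from 0 to 6 for the other contractile apparatus, 1 to 3 for regulators, 1 to 6 for receptors and channels, 4 to 5 for relatives, 3 to 4 for early response genes, 1 to 4 for pericytes and for fibroblasts, 0 to 3 for cardiac, 0 to 6 for mesothelial and 2 to 7 for airway genes.

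Signs turned for members near 0. Mylk in LPS against control was 0.0018 with RLE, 0.0027 with 2 groups, 0.0018 by DESeq2 and -0.11 to 0.10 with a library left out. Tagln was 0.0024 with upper-quartile scaling and -0.32 to 0.21 with a library left out. Smtn was -0.072, -0.075 and -0.072 by limma and -0.022 to 0.28 with a library left out. In LPS + RSBD against control, Acta2 was -0.15 in all limma fits and Mylk -0.00880, -0.00914 and -0.00880. With a library left out of that comparison, Acta2 ranged from -0.23 to 0.35, Lmod1 from -0.36 to 0.073, Actg2 from -0.48 to 0.080, Cnn1 from -0.39 to 0.16 and Des from -0.26 to 0.13. In LPS + RSBD against LPS, left-out ranges were -0.0025 to 0.25 for Mylk, -0.072 to 0.23 for Smtn and -0.037 to 0.53 for Acta2.

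Replicate numbers did not pair the libraries: deviations of same-numbered libraries had correlations from -0.21 to 0.12, with 2 of 9 above 0.1, and other pairs -0.16 to 0.19. Depth limits Myocd most, with 56 to 135 reads per library.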

Other observations

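Ratios between members, taken per length within a library and chosen after their values were seen, add a pattern inside the set. The gamma actin Actg2 was 15.1% to 17.6% of the alpha actin Acta2 in control, 8.15% to 13.9% in LPS and 12.4% to 14.3% in LPS + RSBD, so all 6 libraries that received LPS lay below all 3 controls. Myocd was 3.78% to 6.67% of Myh11 in control, 2.57% to 5.07% in LPS and 2.55% to 2.92% in LPS + RSBD. For that ratio the LPS + RSBD libraries lay below all controls, while LPS 2 lay inside the control range. LPS + RSBD 3, the library lowest in its group for all 10 members, was also the lowest of its group in both ratios, by less than 1 percentage point. No test was made of these ratios, and no share of non-overlap was taken over other ratios. The control libraries differ from the others in reads of the Y chromosome as well.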
